A study of Mus musculus with 8 samples.

Results

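Basophils were found in the immune cells of the mouse brain at low frequency. They were chosen by their own transcripts, as cells with at least 3 UMIs of Mcpt8, at least 1 UMI of Cd200r3 and fewer than 5 UMIs of Mcpt4. A UMI (unique molecular identifier) marks 1 captured transcript. Of 46314 cells in 8 libraries, 168 met this gate, a share of 0.363% (exact binomial 95% interval 0.310 to 0.422). Intervals given here cover counting error only. Because the gate used Mcpt8, Cd200r3 and Mcpt4, the levels of these genes are descriptions and not findings.

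CD45.2+ cells had been sorted from the brain of perfused mice and sequenced from the 5′ end of the transcripts. The mice were C57BL/6J (WT) or APPNL-G-F knock-in mice, whose App gene carries a humanised Aβ sequence with the Swedish, Arctic and Iberian mutations, and were 16 weeks old by the labels. Both genotypes were studied as controls on water, in acute colitis (2% DSS, dextran sulfate sodium, in the drinking water for 1 week), in chronic colitis (3 cycles of 2% DSS and water, 5 days each) and in food allergy (ovalbumin injected with alum and then given by mouth). Each condition was 1 library, so library and condition cannot be told apart. Hashtag antibodies numbered 4 to 7 had marked the samples pooled in a library. The sources used here do not say which mouse each hashtag stands for, and for APPNL-G-F chronic colitis the study gives fewer mice than there are hashtag groups. Groups may thus share an animal, p-values over hashtag groups measure the spread between these groups only and may be too small, and the same hashtag number in different libraries does not pair them.

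Basophils are the rarest granulocytes. They arise in the bone marrow from progenitors shared with mast cells and other granulocytes, under GATA2 and C/EBPα, and enter tissues from the blood. They carry IgE on the receptor FcεRI, store histamine and proteases in granules, and are known as an early source of IL-4 and IL-6 in type 2 inflammation. Mast cells share the receptor, the histamine and part of the granule content, but mature in the tissue and hold other proteases.

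The named identity was checked with Ms4a2, the β chain of FcεRI, which the gate did not use. It was seen in 162 of 168 cells (96.4%), against 0.206% of T cells and 0.132% of B cells. Mcpt8, which encodes a basophil granule protease, had a median of 55 UMIs per cell, from 3 to 345. Mcpt4, a protease of connective tissue mast cells that the gate limited, was seen in 1 basophil. Of the 8 mast cell markers, 4 were at 0 UMIs, among them the tryptase Tpsab1. The summed level was 93.6 CPM (the UMIs of a gene scaled by the total of all gene UMIs) in basophils against 86552 CPM in mast cells. Mast cells were cells outside the gate with at least 5 UMIs of Mcpt4 and at least 1 UMI of Cma1. Both genes are on the marker list, so the definitions fixed part of this difference. At the edge of the gate, the 17 cells with 3 or 4 UMIs of Mcpt8 had 640 CPM of Ms4a2 and 1152 CPM of Fcer1a. The 36 cells just outside, with 1 or 2 UMIs of Mcpt8, had 577 and 770 CPM. A further 62 cells had enough Mcpt8 but no Cd200r3, and Ms4a2 was seen in 37 of them. Another 20 cells had Cd200r3 and Ms4a2 but no Mcpt8.

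Basophils were deeply covered. Their median was 7534 UMIs (1054 to 31814) and 2658.5 genes, against 3267 UMIs for all cells. Libraries held between 26988646 and 56307389 gene UMIs over all barcodes. Of the barcodes kept as cells, 1278 occurred in 2 or more libraries. None of the 168 basophil barcodes was a basophil in another library, but 11 were also a cell elsewhere.

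Some members also carried transcripts of another lineage. In 10 of the 168, at least 5 UMIs came from the T cell, B cell, neutrophil or macrophage list. In 2 cells of APPNL-G-F acute colitis the neutrophil list reached 7157 and 5264 UMIs. In 1 cell of WT chronic colitis, outside those 10, the eosinophil genes Prg2 and Epx reached 3043 UMIs beside 4 UMIs of Mcpt8. Pooled levels of S100a8, S100a9, Ngp, Prg2, Epx, Cd74 and H2-Aa in basophils therefore rest on 1 to 3 cells. Whether these barcodes held 2 cells was not tested.

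The regions before the transcription starts of 4 genes are shown because these genes, of the granule and of the IgE receptor, separated basophils most from all other cells. For Mcpt8 the gate itself had set this separation. Each line gives the 250 bases before the start, 5′ to 3′ along the gene, from RefSeq on GRCm38.p6. By the GENCODE span given below, the Mcpt8 window reaches into the transcribed gene. Capitals mark the letters AGATAA or TGATAA on either strand, which GATA factors are known to bind. Prss34 lies on the plus strand (chr17:25298144-25298393). Mcpt8 (chr14:56085198-56085447), Ms4a2 (chr19:11623720-11623969) and Fcer1a (chr1:173227230-173227479) lie on the minus strand.
Prss34: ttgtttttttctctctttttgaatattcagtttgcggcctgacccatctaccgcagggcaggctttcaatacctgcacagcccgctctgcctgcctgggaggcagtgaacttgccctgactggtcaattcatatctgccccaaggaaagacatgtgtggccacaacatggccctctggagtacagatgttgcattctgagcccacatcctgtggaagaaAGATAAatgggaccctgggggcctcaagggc
Mcpt8: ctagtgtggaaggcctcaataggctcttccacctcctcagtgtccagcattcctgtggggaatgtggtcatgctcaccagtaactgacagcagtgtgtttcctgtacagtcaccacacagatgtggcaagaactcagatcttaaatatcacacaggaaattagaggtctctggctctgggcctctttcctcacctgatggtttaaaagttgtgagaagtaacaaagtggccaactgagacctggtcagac
Ms4a2: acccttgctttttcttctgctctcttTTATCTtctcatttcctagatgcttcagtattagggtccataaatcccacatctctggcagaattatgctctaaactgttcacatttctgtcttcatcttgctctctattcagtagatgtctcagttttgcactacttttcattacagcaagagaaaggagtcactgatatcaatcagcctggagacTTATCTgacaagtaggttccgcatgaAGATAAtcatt
Fcer1a: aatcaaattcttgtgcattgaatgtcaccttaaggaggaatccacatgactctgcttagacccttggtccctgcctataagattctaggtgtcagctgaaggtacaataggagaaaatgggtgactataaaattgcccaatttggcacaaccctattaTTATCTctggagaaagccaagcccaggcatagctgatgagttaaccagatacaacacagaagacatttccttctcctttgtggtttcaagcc
The letters occurred 3 times before Ms4a2, beginning at positions -224, -37 and -11 from the start. They occurred at -31 before Prss34 and at -92 before Fcer1a, and not in this window of Mcpt8. Among the 20 genes leading in basophils, 17 had an entry, and 5 of these held the letters (29.4%), as did 18.8% of 27025 genes with an entry. The 20 include the gate genes Mcpt8 and Cd200r3, and Cd200r3 is among the 5. A match is a description of the sequence and not evidence of binding. By GENCODE vM21 the transcribed genes span 25298394 to 25300165 of chromosome 17 (Prss34), 56082166 to 56085273 of chromosome 14 (Mcpt8), 11615523 to 11623719 of chromosome 19 (Ms4a2) and 173221284 to 173227214 of chromosome 1 (Fcer1a).

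Prss34 had the highest level of any gene in basophils, and Mcpt8 the third highest. The gate chose these cells by expression, so their levels against other cell types carry no test. In the 5′ kit 1 UMI is 1 transcript whatever its length, so levels of different genes can be set side by side in CPM. Prss34, a tryptase-like protease also called mMCP-11, reached 51522 CPM in basophils, against 133 CPM in mast cells and 21.3 CPM in all other cells pooled. It was seen in 94.6% of basophils and 0.460% of T cells. Mcpt8 reached 9227 CPM. Cpa3, a carboxypeptidase shared with mast cells, was lower in basophils (3190 CPM) than in mast cells (10787 CPM). Ctsg, which encodes cathepsin G of granulocyte granules, was at 3479 CPM against 634 CPM in mast cells and 326 CPM in neutrophils. Srgn, the proteoglycan that packs granule contents, was about equal in basophils (3363 CPM) and mast cells (3492 CPM).

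The IgE receptor chains were high in both FcεRI-bearing cell types. Fcer1a, the IgE-binding α chain, was at 2162 CPM in basophils and 1241 CPM in mast cells. Ms4a2 was at 856 and 317 CPM, and the shared γ chain Fcer1g at 2719 and 2397 CPM. In ILC2, neutrophils, T cells and B cells Fcer1a was at or below 1.62 CPM. Among adaptors downstream, Lat2 was at 370 CPM and Lat at 210 CPM in basophils.

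Histamine and lipid mediator genes differed between basophils and mast cells. Hdc, which makes histamine, was at 561 CPM in basophils and 3237 CPM in mast cells, and the vesicle transporter Slc18a2 at 140 and 375 CPM. In the leukotriene pathway the order was the opposite. Alox5 was at 601 CPM in basophils and 153 CPM in mast cells, and its partner Alox5ap at 2412 and 729 CPM. Alox15, a lipoxygenase, was at 87.4 CPM in basophils and had no UMI in mast cells. Cyp11a1, which starts steroid synthesis from cholesterol, was at 540 and 648 CPM.

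Among transcription factors, Gata2 was seen in 99.4% of basophils (964 CPM, with 522 CPM in mast cells). Cebpa was at 430 CPM in basophils and between 3.51 and 9.72 CPM in the 5 other cell types. Of the 20 listed cytokine receptors, 15 were seen in at least 10% of basophils. The IL-3 receptor chain Il3ra was at 321 CPM against 94.0 CPM in mast cells, and its signalling partner Csf2rb at 315 CPM. Crlf2, which binds TSLP, was at 314 CPM. Il18rap was at 116 CPM against 5.60 CPM in mast cells. The surface proteins Cd63 and Cd9 were at 2240 and 540 CPM. Ptgdr2, a receptor for prostaglandin D2 that basophils are known for, had 0 UMIs (exact Poisson 95% interval up to 2.54 CPM).

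Il4 and Il6 transcripts were present at modest levels in many basophils. Il4 was at 99.1 CPM (exact Poisson 95% interval 83.6 to 117) and seen in 99 cells, 58.9% of basophils, against 0.486% of B cells. Il6 was at 92.9 CPM (77.9 to 110) and seen in 51.8% of basophils, against 0.173% of B cells. At an equal depth of 1000 UMIs per cell, 14.3% of basophils and 0.202% of B cells had an Il4 UMI (median depths before thinning 7534 and 2626 UMIs). Mast cells held more Il4 (229 CPM) and less Il6 (6.72 CPM). Il13 was seen in 2 basophils, against 73.9 CPM in mast cells. Csf1, the macrophage growth factor, was at 257 CPM and Hgf, hepatocyte growth factor, at 146 CPM in basophils, against 102 and 20.1 CPM in mast cells. The chemokine Ccl3 was at 523 CPM against 2.24 CPM in mast cells. Of the 760 Ccl3 UMIs in basophils, 424 came from 23 cells of hashtag groups with high immediate-early genes, which are described below. Such groups held 232 of 240 mast cells but 23 of 168 basophils. The part of this in the values of basophils against mast cells was not tested.

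**Figure D1:**
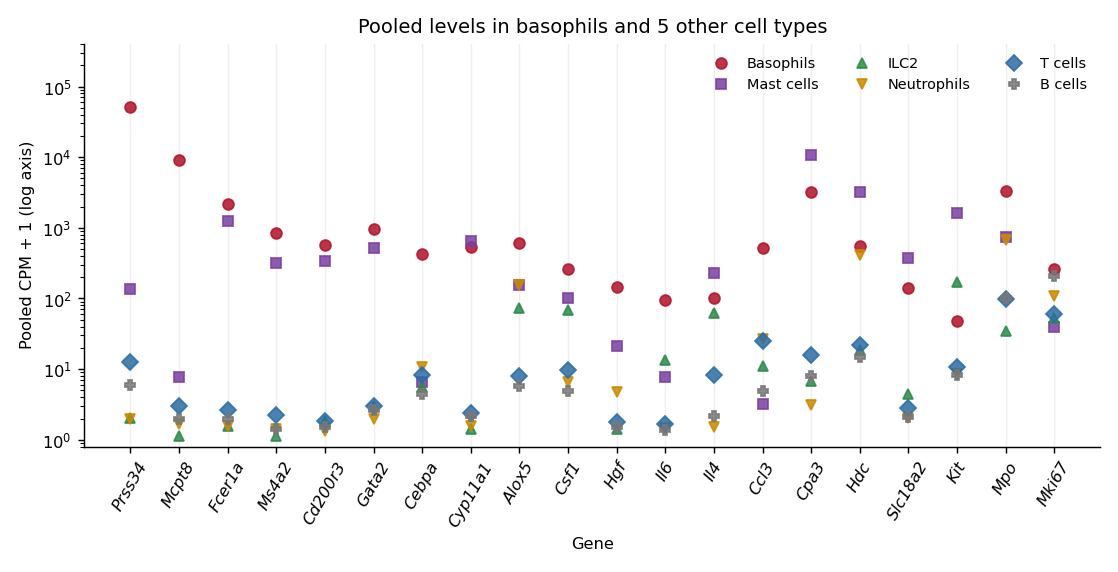
Pooled CPM plus 1 on a log axis for 20 genes (horizontal axis) in basophils and 5 other cell types, 1 point per gene and cell type. Prss34 and Mcpt8 stand highest in basophils, at 51522 and 9227 CPM, while Cpa3, Hdc and Slc18a2 were higher in mast cells.

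The share of basophils was compared between conditions over hashtag groups of at least 100 cells. By library it was 33 of 6747 cells in WT control, 0 of 4479 in WT acute colitis, 9 of 5327 in WT chronic colitis and 7 of 4584 in WT food allergy. In APPNL-G-F mice it was 28 of 6700 in control, 21 of 6282 in acute colitis, 35 of 5742 in chronic colitis and 35 of 6453 in food allergy. A count of 0 in WT acute colitis limits the share there to 0.0670% (3 counts of the total; exact 95% upper bound 0.0823%). In that library 1 barcode met the gate but failed the hashtag rule. Hashtag groups within a library differed widely. In WT control the 4 groups held 0.217%, 1.21%, 0.181% and 0.128%. In APPNL-G-F control they held 0.831%, 0.757%, 0.0641% and 0%. In APPNL-G-F chronic colitis they held 1.60%, 0.697%, 0.0603% and 0.244%.

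No comparison of conditions passed the test. The mean share was 0.435% ± 0.520 (SD, n = 4 hashtag groups) in WT control and 0.413% ± 0.442 (n = 4) in APPNL-G-F control, a difference of -0.02 percentage points (exact two-sided permutation test, p = 0.971, adjusted over 7 comparisons 0.971). In WT acute colitis it was 0% in 3 groups, -0.43 points against control (exact p = 0.0571, the smallest that 3 against 4 groups can give, adjusted 0.400). Hashtag 6 of these groups had 108 cells, in which a count of 0 limits the share to 2.78%. In APPNL-G-F acute colitis it was 0.218% ± 0.377 (n = 3), -0.20 points against control (exact p = 0.400, adjusted 0.960). APPNL-G-F chronic colitis stood at 0.649% ± 0.685 (n = 4) and food allergy at 0.465% ± 0.573 (n = 4), with exact p of 0.600 and 0.914 against control and adjusted p of 0.960 and 0.971. In WT mice chronic colitis was at 0.397% ± 0.554 and food allergy at 0.283% ± 0.351 (n = 3 each, exact p = 0.629 and 0.686, both 0.960 adjusted). The acute effect in APPNL-G-F minus that in WT mice was 0.24 points (exact permutation p = 0.557 over 1400 regroupings), and the chronic and food allergy effects differed by 0.27 and 0.20 points (exact permutation p = 0.621 and 0.691, each over 2450). In these tests a group mean differed from control by less than the spread between hashtag groups.

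Part of the spread followed another property of the hashtag groups. Immediate-early genes such as Fos and Egr1 are switched on soon after a cell is stimulated or handled. In T cells, their summed level divided the 30 hashtag groups into a low set of 14 groups (780 to 1899 CPM over 10 genes) and a high set of 16 groups (3264 to 6572 CPM). The sets came from the data and are not groups of the study. In the low set 145 of 16300 cells were basophils, 0.890% (0.751 to 1.05). In the high set 23 of 30014 were, 0.0766% (0.0486 to 0.115). The low set thus held 86.3% of the basophils with 35.2% of the cells, a difference of 0.81 points (0.67 to 0.97). The share was higher in the low set in 7 of 8 libraries, and 0 in both in WT acute colitis. There the low set had only 162 cells, in which a count of 0 limits the share to 1.85%. Single groups of the sets overlapped. Low-set WT control hashtag 4 was at 0.217%, and high-set APPNL-G-F chronic colitis hashtag 7 at 0.244%. In WT control, hashtag 5 held 25 of the 27 low-set basophils.

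**Figure D2:**
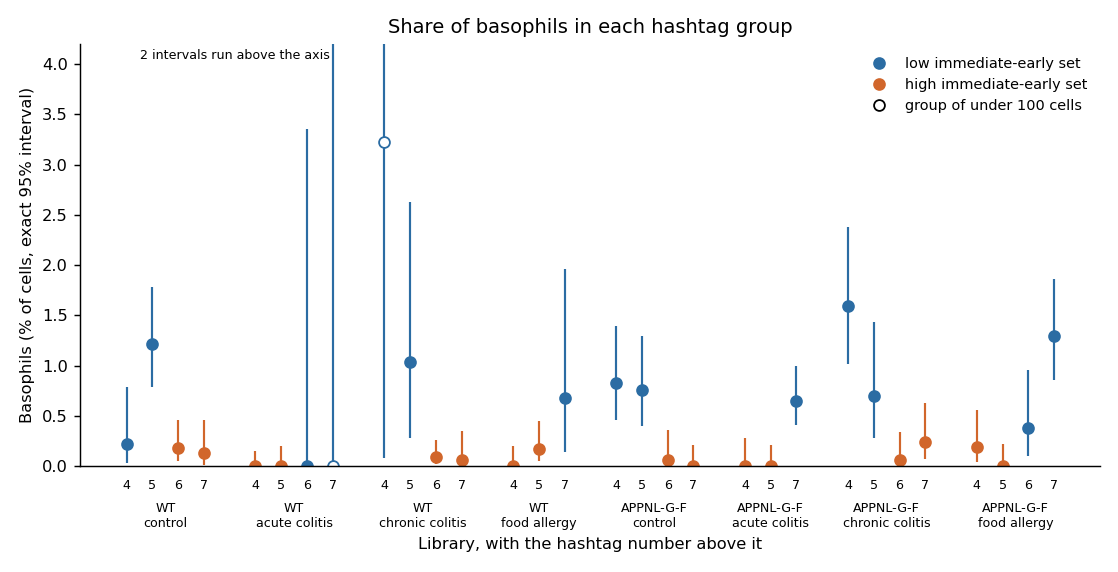
Basophils in percent of cells (vertical axis) in each hashtag group, by library, coloured by immediate-early set, with exact 95% binomial intervals and open points for groups under 100 cells. Groups of the low set hold 0.890% basophils in all and those of the high set 0.0766%, and the 3 highest groups of at least 100 cells are 1.60%, 1.29% and 1.21%, all of the low set.

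Mast cells showed the opposite order. They were 8 cells (0.0491%) in the low set and 232 cells (0.773%) in the high set, higher in the high set in 8 of 8 libraries. In WT acute and chronic colitis the low set was too small to show this order, since its count of 0 limits the share to 1.85% and 0.719%, above the 1.02% and 0.591% of the high set. Other cells moved with the sets too, in both directions. T cell markers had a median of 1256 CPM in the low and 544 CPM in the high groups, NK cell markers 902 and 449 CPM and erythroid markers 789 and 230 CPM. The groups overlapped in each of these lists. T cell markers ranged from 213 to 2848 CPM in the low and 177 to 828 CPM in the high groups. NK cell markers ranged from 335 to 1694 and 242 to 636 CPM, and erythroid markers from 28.1 to 7187 and 18.3 to 1126 CPM. ILC2 were 1.63% of the low and 5.56% of the high set, and neutrophils 10.6% and 12.3%. Of the 1725 low-set neutrophils, 1029 were from APPNL-G-F acute colitis hashtag 7. Among other cells of the groups with at least 100 cells, the fibroblast markers summed to a median of 0.418 CPM (0 to 45.1) in 12 low groups and 58.0 CPM (7.66 to 329) in 16 high groups. Plasma cell markers were at 1116 CPM (191 to 2424) and 5899 CPM (2294 to 12351). Median UMIs per cell overlapped, from 2587 to 5387 in the low and from 2544 to 4676 in the high groups. What the sets stand for was not tested.

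Within the sets, 2 groups against 2 cannot reach an exact permutation p below 0.333, so no comparison could pass. In the low set, APPNL-G-F chronic colitis stood at 1.15% and food allergy at 0.835% against 0.794% in APPNL-G-F control (2 groups each, exact permutation p = 1 for both). APPNL-G-F control was 0.08 points above WT control in the low set and -0.12 points from it in the high set (exact permutation p = 1 and 0.333). In the high set 3 comparisons stood at this minimum, with no overlap between groups. WT control was at 0.128% and 0.181%, WT acute colitis at 0% in both groups, WT chronic colitis at 0.0637% and 0.0898%, and APPNL-G-F control at 0% and 0.0641%. The other arms of the low set were 1 group each and had no test.

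Within basophils the sets differed in immediate-early and chemokine genes. The 23 high-set basophils also had a higher median mitochondrial share (0.916%, up to 4.04%) than the 145 low-set ones (0.719%, up to 2.86%), and a median depth of 6136 against 7575 UMIs. The part of these differences in the results was not tested. The fit used UMIs summed over the basophils of each hashtag group with at least 3 basophils, 10 low and 5 high groups, with terms for genotype, treatment and set. Of 5466 genes tested, 53 were higher (0.97%) and 8 lower (0.146%) in the high set, 1.12% in all. All 10 immediate-early genes were higher, but that list had defined the sets in T cells of the same groups and is no independent evidence of direction. Fos was at most 135 CPM in the low groups (median 31.0) and 341 to 2908 CPM (median 1570) in the high groups. The groups did not overlap, and the log2 difference was 5.02 (SE 0.36, adjusted p = 2.08e-15). Egr1 was at most 47.2 CPM in the low and 128 to 1900 CPM in the high groups (log2 6.05, SE 0.42, adjusted p = 1.23e-15).

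Chemokines and the cytokine oncostatin M rose with them. Of 5 chemokines tested, Ccl3, Ccl4, Ccl9 and Cxcl2 were higher, with a list median of 2.90 on the log2 scale against -0.10 for all genes. The call of Ccl9 was lost within APPNL-G-F libraries (adjusted p = 0.453) and without WT control hashtag 6 (adjusted p = 0.0877), and that of Cxcl2 with DESeq2 (adjusted p = 0.976). Ccl4, a chemokine that draws in lymphocytes and monocytes, was at 34.3 to 345 CPM in the low and 852 to 6496 CPM in the high groups (log2 4.68, SE 0.37, adjusted p = 7.21e-14). Ccl3 was at 38.9 to 542 CPM in the low and 298 to 3926 CPM in the high groups, which overlapped (log2 2.90, SE 0.39, adjusted p = 3.44e-07). Osm reached 34.3 CPM at most in the low groups and 21.3 to 1590 CPM in the high groups (log2 5.35, SE 0.44, adjusted p = 1.47e-13). Cxcl2 had 57 UMIs in 3 cells of the high set and 1 UMI in the low set. Ptgs2, the inducible cyclooxygenase, had 46 UMIs in 9 high-set cells and none in 145 low-set cells, at least 94.7-fold higher against a floor of 3 counts over the low set. The activation marker Cd69 was higher by 2.55 (SE 0.43, adjusted p = 4.97e-05). The calls of Cd69 and Ptgs2 held with each group left out but not in every other alternative. Il7r, Il1b and Irf8 were also called higher, and none of these in every alternative. Il1b had 40 UMIs in 3 high-set cells, and Irf8 had 36 UMIs in 2.

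Il4 and Il6 did not pass the test. Il4 was at 19.5 to 137 CPM in the low and 63.9 to 349 CPM in the high groups (log2 0.94, SE 0.41, adjusted p = 0.601). It was seen in 58.6% of low-set basophils (50.2 to 66.7) and 60.9% of high-set basophils (38.5 to 80.3). Il6 was at 38.9 to 137 CPM and 0 to 373 CPM (log2 1.31, SE 0.46, adjusted p = 0.296). Without the 10 cells with counts of other lineages it passed (log2 2.23, adjusted p = 0.000585). Il13 had 4 UMIs, in 2 high-set cells.

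Of 12 IgE receptor genes tested Fcer1a was lower in the high set, and of 8 granule protease genes Prss34. Fcer1a was at 1572 to 3257 CPM in the low groups and 441 to 1559 CPM in the high groups (log2 -1.51, SE 0.25, adjusted p = 2.80e-05). Prss34 was at 36512 to 79090 CPM and 17670 to 45910 CPM, which overlapped (log2 -0.89, SE 0.23, adjusted p = 0.0277). Its call was lost with DESeq2 (adjusted p = 0.101) and on leaving out any of 8 groups, WT control hashtag 5, WT chronic colitis hashtag 6, or APPNL-G-F control hashtag 5, chronic colitis hashtags 4 and 7 and food allergy hashtags 4, 6 and 7 (adjusted p from 0.0606 to 0.335). Fcer1a missed the threshold within WT libraries alone (log2 -1.29, adjusted p = 0.100). Ms4a2 (log2 -0.71, adjusted p = 0.377) and Gata2 (log2 -0.22, adjusted p = 0.963) did not pass. Of 18 cell cycle genes, 1 was lower (Ube2c, log2 -2.23, adjusted p = 0.0243), and not so with DESeq2 (adjusted p = 0.765). Without the cells of other lineages 6 were lower, Cdk1, Tubb5, Rrm2, Ube2c, Birc5 and Top2a. Of the 7 antigen presentation genes tested, Cd74, H2-Aa, H2-Eb1 and H2-Ab1 were called higher, but 89.3% of the Cd74 UMIs and 99.3% of the H2-Aa UMIs came from 1 cell each. Called falls of Prg2 and Epx came from the 1 cell named above. Without the cells of other lineages 79 of 5015 genes (1.58%) were called.

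**Figure D3:**
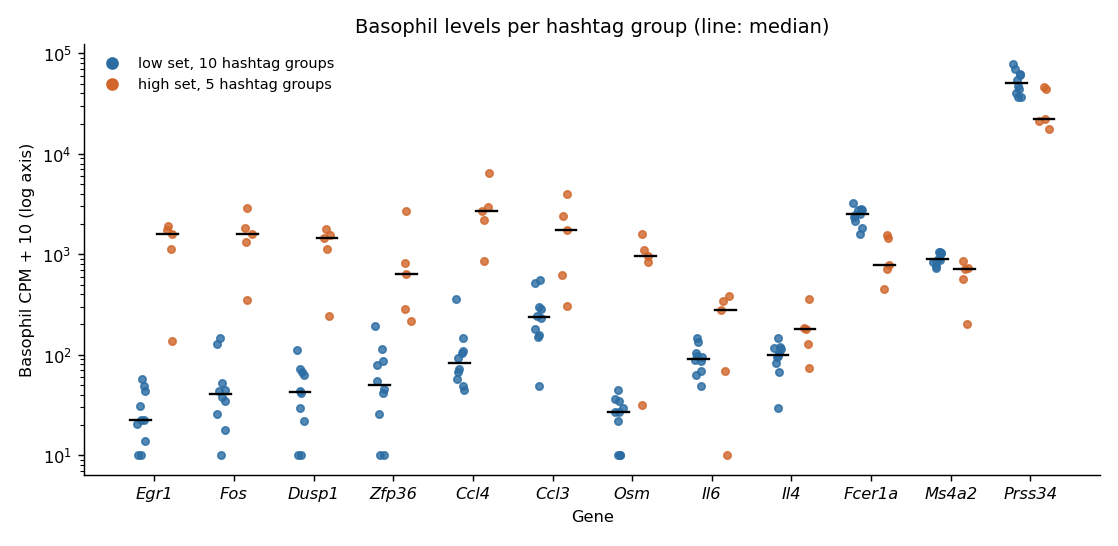
Basophil CPM plus 10 on a log axis for 12 genes (horizontal axis) in 10 hashtag groups of the low and 5 of the high immediate-early set, 1 point per group, with the median as a line. Egr1, Fos and Ccl4 lie higher and Fcer1a lower in the high set without overlap, and Il4 overlaps. Egr1 and Fos are of the list that defined the sets. How many of all genes tested do not overlap was not counted.

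Between conditions, expression was tested in the hashtag groups with at least 10 basophils. These were 6 groups, all of the low set, with 124 basophils: WT control hashtag 5 (25 cells), APPNL-G-F control hashtags 4 (14) and 5 (13), acute colitis hashtag 7 (21), chronic colitis hashtag 4 (23) and food allergy hashtag 7 (28). The spread rests on 1 residual degree of freedom, from the APPNL-G-F control groups, and each other arm is 1 group. The p-values therefore compare these groups and not the conditions. In all, 4746 genes were tested.

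In the chronic colitis group the early granule proteases Elane and Prtn3, made at the promyelocyte stage, were higher than in the control groups, with most Elane UMIs from a few cells and no call by DESeq2. Elane was at 375 CPM in APPNL-G-F chronic colitis against 0 and 24.6 CPM in the APPNL-G-F control groups (log2 4.97, SE 0.62, adjusted p = 3.75e-12). Prtn3 was at 417 CPM against 73.5 and 0 CPM (log2 3.38, SE 0.46, adjusted p = 6.72e-10). Elane UMIs came from 34 basophils in all, and 63.9% of them from 3 cells. The other chronic colitis groups with 3 or more basophils did not all show it. Elane was at 1090 CPM in WT hashtag 5, 220 and 116 CPM in APPNL-G-F hashtags 5 and 7, and 0 in WT hashtag 6. WT food allergy hashtags 5 and 7 stood at 262 and 482 CPM. Elane was also called over all groups of at least 3 basophils (log2 4.96, adjusted p = 1.63e-07). Of 10 precursor genes tested only Elane and Prtn3 were called. In all, 12 of 4746 genes were called (0.253%), 4 higher (0.0843%) and 8 lower (0.169%), and none with DESeq2 (10 at an unadjusted p under 0.05), where Elane had log2 5.00 and was not called. Among the lower ones Thy1, a surface glycoprotein, was at 31.3 CPM against 294 and 308 CPM (log2 -3.22, SE 0.51, adjusted p = 5.06e-07).

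In the acute colitis group 55 genes were called (1.16%), 37 higher (0.78%) and 18 lower (0.379%). The largest rises were S100a9, Ltf, Camp, Chil3 and S100a8, genes of neutrophil granules and cytosol, and 99.6% of the S100a9 UMIs came from 3 basophils. Without the cells of other-lineage counts 11 of 4547 genes were called (0.242%), and with groups of at least 3 basophils, 27 calls became 0 (255 genes at an unadjusted p under 0.05 in edgeR). Of the 11, some were higher and some lower, and only lower ones are named here. Lgals1, the gene of galectin-1, fell by 2.58 on the log2 scale (SE 0.41). Over all basophils it stood at 554 CPM against 1795 and 2733 CPM in the control groups, and with groups of at least 3 basophils it was not called (log2 -1.51, adjusted p = 0.504). Sdf2l1, an endoplasmic reticulum protein, fell by 2.81 (SE 0.56, adjusted p = 0.00116), and Thy1 had a log2 difference of -3.15 (SE 0.66, adjusted p = 0.00176). With those cells kept, Ccl3, Cd7, Il18r1, Nfil3 and Mcm3 were also lower. None of these 5 was called without them.

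In the food allergy group 3 genes were called (0.0632%), 2 higher (0.0421%) and 1 lower (0.0211%), and none with DESeq2 (6 at an unadjusted p under 0.05). Ube2c, a cell cycle gene, was higher at 697 CPM against 220 and 172 CPM (log2 1.80, SE 0.31, adjusted p = 1.50e-05), as was the unnamed transcript Gm11505. Over all groups of at least 3 basophils no gene was called higher and 1 lower (187 at an unadjusted p under 0.05). The remaining one, Cma1, had 65 UMIs in 5 basophils, 96.9% of them in 3 cells, so its calls in all 4 contrasts rest on these cells. No gene of the lists of IgE receptor, cytokines, chemokines or mediators was called. Il4 was at 104 CPM against 94.5 and 86.2 CPM, Il6 at 76.1 against 52.5 and 86.2 CPM, and Hdc at 557 against 588 and 813 CPM.

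Between genotypes 73 genes were called (1.54%), 54 higher (1.14%) and 19 lower (0.4%) in APPNL-G-F basophils. Genes of small ribosomal and respiratory chain proteins were 26 of the higher ones, 13 of 83 ribosomal and 13 of 92 respiratory genes tested. Rpl38 was at 338 CPM in the WT control group and 1998 to 2467 CPM in the 5 APPNL-G-F groups. Its fitted log2 difference was 2.93 (SE 0.42). Each treated group had its own term in the fit. The genotype difference thus compares only the WT control group with the APPNL-G-F control groups. The WT arm was 1 group of the WT control library, and the 6 of these genes looked up in other cells, Rpl38, Rps28, Rps27, Rps29, Ndufa1 and Ndufa3, were low in T cells and B cells of that library too. Rpl38 was at 622 CPM in its T cells and 355 CPM in its B cells, against 1382 to 3622 CPM and 769 to 1907 CPM in the other libraries, WT libraries among them. In the basophils of WT chronic colitis Rpl38 was at 2263 CPM.

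**Figure D4:**
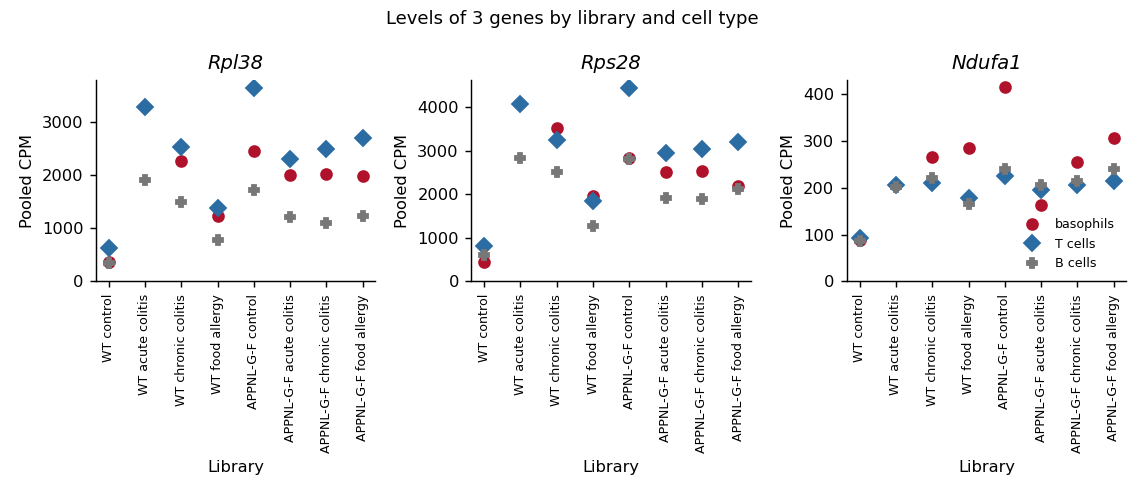
Pooled CPM (vertical axes, from 0) of Rpl38, Rps28 and Ndufa1 in basophils, T cells and B cells of each library, with no basophils in WT acute colitis. The WT control library is lowest for each gene in all 3 cell types, with Rpl38 at 358 CPM in its basophils, 622 CPM in T cells and 355 CPM in B cells.

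Chemokines and cell cycle genes were also called between genotypes. Of 4 chemokines tested, Ccl9, Ccl6 and Ccl3 were higher in APPNL-G-F mice (list median 1.59 against -0.01 for all genes). Ccl9 was at 67.6 CPM in the WT group and 151 to 430 CPM in the APPNL-G-F groups. Its fitted log2 difference, between the control groups only, was 2.27 (SE 0.41). By library the order was not kept. Basophil Ccl9 was at 152 CPM in WT control, 151 CPM in APPNL-G-F acute colitis and 160 CPM in APPNL-G-F food allergy, and Ccl6 was higher in WT food allergy (893 CPM) than in APPNL-G-F acute (504 CPM) and chronic colitis (392 CPM). The WT group also had the highest share of basophils with cell cycle UMIs (84.0%), in which these chemokines were lower. Its part in the result was not tested. Over all groups of at least 3 basophils none of these chemokines was called (Ccl9 adjusted p = 0.179 and Ccl6 adjusted p = 0.239). Of 18 cell cycle genes, Rrm2, Top2a, Tyms and Mki67 were lower (list median -0.73). Rrm2 was at 557 CPM in the WT group against 95.1 to 193 CPM in the APPNL-G-F groups. Its fitted log2 difference, between the control groups only, was -1.77 (SE 0.33). With all groups of at least 3 basophils Rrm2 was at 0.07 and not called, and neither was any ribosomal or respiratory gene.

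Many cells of the gate carried transcripts of dividing cells. The gate counted raw UMIs, which deeper cells reach more easily, so the basophil shares below describe its members. How the cells left out by the gate compare was not tested. Mki67 or Top2a was seen in 71 of 168 (42.3%, 34.7 to 50.1), against 917 of 5405 neutrophils, which were of similar depth (median 6882 UMIs), and 2.92% of mast cells, 7.77% of T cells and 16.1% of B cells, which were read less deeply. After thinning to 1000 UMIs it was 38 basophils, 22.6% (16.5 to 29.7). For Top2a alone the thinned share was 15.5% in basophils, 4.11% in neutrophils, 2.16% in T cells and 6.86% in B cells. WT control hashtag 5 had the highest share of the 6 large groups, 21 of 25 basophils (84.0%, 63.9 to 95.5) and 48.0% after thinning. The 5 APPNL-G-F groups ranged from 23.8% in acute colitis to 53.6% in food allergy, and from 7.14% to 21.4% after thinning. In the low set the share was 44.1% and in the high set 30.4% (7 of 23), and 21.4% and 30.4% after thinning.

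Transcripts of basophils with and without cell cycle UMIs were set side by side. Between the 65 cells with and the 93 without a UMI of Mki67 or Top2a, other-lineage cells left out, Mpo, the myeloperoxidase of myeloid progenitors, was at 4476 and 2080 CPM. It was seen in 93.8% and 36.6% of the cells and was higher in the former in 5 of 6 groups. The precursor list as a whole gave no such order. Of its 10 measured genes, 6 were higher in cells with cell cycle UMIs. Its median log2 ratio was 0.09, against -0.30 over 340 genes drawn from the lists, called genes and leading genes of this report. Prss34 was at 61876 and 42584 CPM, Mcpt8 at 11403 and 7139 CPM and Ms4a2 at 889 and 920 CPM. Median depth was 9876 and 4885 UMIs. The split used cell cycle genes, and depth raises the chance of a UMI, so these values are a description.

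In cells without cell cycle UMIs, all 6 measured chemokines and 7 of 8 cytokines were higher. So were 10 of 10 histamine and lipid mediator genes and 14 of 15 cytokine receptors. Of the 340 genes drawn from this report, 216 were higher in these cells. That pool includes the lists named here and is not a share over all genes. Csf1 was at 416 CPM in cells without cell cycle UMIs and 147 CPM in cells with them, and higher in the former in 6 of 6 groups. Ccl9 was at 383 and 58.6 CPM, also in 6 of 6 groups. Ccl3 was at 890 and 302 CPM and Ccl6 at 1190 and 253 CPM, each in 5 of 6 groups. Il4 was at 129 and 81.7 CPM, and the β chain Csf2rb, used by the receptors of IL-3, IL-5 and GM-CSF, at 444 and 233 CPM. The pooled values hold both immediate-early sets. Cxcl2, Il1b and Ptgs2, counted in these lists, had 57, 40 and 46 UMIs in high-set basophils and 1, 0 and 0 in low-set ones. The part of the sets in this order was not tested.

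**Figure D5:**
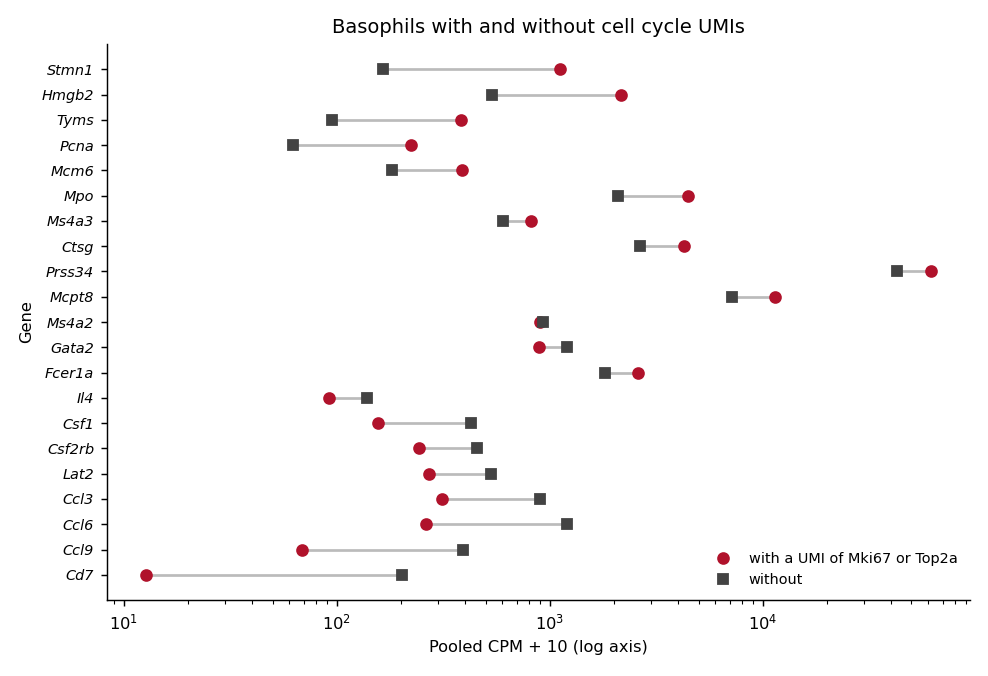
Pooled CPM plus 10 on a log axis (horizontal) for 21 genes (vertical axis) in basophils with and without a UMI of Mki67 or Top2a, other-lineage cells left out. Mpo stands at 4476 against 2080 CPM, while Csf1, Ccl3, Ccl6, Ccl9 and Cd7 stand lower in the cells with cell cycle UMIs.

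A component analysis of the 168 cells over 7175 genes described the spread without a preset split. The first component took 5.11% of the variance and followed depth (r = 0.845 with log10 UMIs over 168 cells, a description). Stmn1, Mpo, Ptma and H2afz were among the 8 leading genes of one end, and Tyrobp, Lgals3, Ccl3 and Ccl9 among those of the other. The second component (2.28%) set cell cycle genes such as Ccna2, Birc5 and Top2a against ribosomal genes. The third (1.51%) had Egr1, Fosb, Jun and Dusp1 at one end, beside the mitochondrial genes mt-Atp6 and mt-Co1.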

How the data were processed

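CD45.2+ brain cells of 8 libraries were analysed as hashtagged 10x 5′ single-cell RNA-seq. The authors aligned reads to mm10 (GRCm38) with Cell Ranger (6.1.2 in the submitters' processing notes, 4 in the matrix headers). The deposited values are raw UMI counts for every barcode, without normalization.

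Barcodes with at least 500 gene UMIs, 200 genes, at most 5% mitochondrial UMIs, and a top hashtag of at least 50 counts and 3 times the second were kept. No doublet caller was run. Of 208 barcodes in the gate, 40 failed the hashtag rule and were left out. The members and gene lists were chosen with earlier results of these data known. The sets, from T cells, were divided at the widest gap (1.72-fold).

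Shares were compared by exact two-sided permutation tests over hashtag groups with Benjamini-Hochberg adjustment over 7 comparisons. Summed UMIs were tested with edgeR 4.0.16 quasi-likelihood F tests in R 4.3.3 (TMM, minimum count 3 and total 30 in filterByExpr, threshold 0.05 after Benjamini-Hochberg over all genes). With at least 10 basophils per group no high group remained, so the term for the set was dropped. The fit with at least 3 was chosen after the counts were seen. Genes named were up to 6 of each list by level, listed genes called, the 5 largest called changes and the 20 leading genes by log2 ratio of CPM plus 10. Scripts were tested on simulated data. Python 3.11.15 with scipy 1.17.1 was used. Alternatives covered gate, filters, DESeq2 1.42.0 and groups left out.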

Additional observations from a re-analysis of the deposited data

Results flagged for a closer look

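Among the libraries with 4 hashtag groups of at least 100 cells, 1 group stood far from the others of its library. In WT control, hashtag 5 held 1.21% basophils (25 of 2061 cells), and its gap to the next group was 0.918 of the range, above the limit of 0.829 for 4 values. With normally distributed values such a flag appears in about 1 in 20 libraries by chance, and 4 libraries were examined. The shares differed by immediate-early set, so this rate may not hold here. This group also had the highest share of basophils with Mki67 or Top2a UMIs among the 6 groups with at least 10 basophils, and it is the WT arm of the comparison of genotypes.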

How the results depend on the processing

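The difference in share between the low and the high set kept its direction in the 9 alternatives of gate, filters and denominator, from 0.73 to 0.93 percentage points. The smallest unadjusted p of a share comparison was 0.0286, for WT acute colitis with every hashtag group. Directions turned for food allergy in APPNL-G-F mice with at least 2 Mcpt8 UMIs (-0.00723 points), for WT chronic colitis with a hashtag ratio of 5 (0.0773), with every hashtag group (0.669) and in the low set (0.321), and for the genotype with a ratio of 5 (0.0561) and in the low set (0.0788). Leaving out 1 hashtag group gave differences of -0.537 to -0.176 points (WT acute colitis), -0.358 to 0.221 (WT chronic colitis), -0.348 to 0.108 (WT food allergy), -0.413 to -0.0562 (APPNL-G-F acute colitis), -0.0793 to 0.432 (chronic colitis), -0.224 to 0.207 (food allergy) and -0.161 to 0.237 (genotype).

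Calls depended on the tool. With DESeq2, 16 genes were called in acute colitis, 0 in chronic colitis, 0 in food allergy and 13 between genotypes, where it gave no adjusted p to 55 of the 73 genes called by edgeR. With edgeR at an unadjusted p under 0.05 it was 295 genes in chronic colitis and 230 in food allergy. With at least 3 basophils per group it was 27 in acute colitis, 1 in food allergy and 15 between genotypes, and with at least 5, 4 in chronic colitis. Without the filter on low counts it was 4 in chronic colitis, 48 between genotypes and 93 between sets. Without cells of other-lineage counts it was 11 in acute colitis, and 0 with at least 3 basophils per group. Within WT libraries the sets gave 30 calls, and within APPNL-G-F libraries 37. Leaving out 1 group gave 42 to 70 calls between sets. For the conditions, the only such fits that could be made left out an arm outside the contrast. They could not show how its calls depend on its own groups. The direction turned for Pclaf (0.20), Rpl36a (-0.10), Rrm2 (0.0679) and Tmem258 (-0.0169) between genotypes with at least 3 basophils, for Pglyrp1 in acute colitis without other-lineage cells (-0.17), and between sets for Psap in WT libraries (-0.11) and, without APPNL-G-F food allergy hashtag 4, for Ckb (-0.41) and H2-Ab1 (-0.17). Over the groups left out these 2 genes reached 3.86 and 4.13. The causes were not tested. Of the 61 genes called between sets, 38 were called in every fit with 1 group left out in which they were tested, and 24 in every alternative in which they were tested. The 24 include H2-Aa and H2-Eb1, seen in only 1 and 2 high-set basophils. Neither was tested without cells of other-lineage counts, where 4 antigen presentation genes were tested and 0 called. The fits with at least 15 basophils, with WT libraries and without either APPNL-G-F control group could not be fitted for the conditions. No paired analysis was possible because the hashtag numbers do not pair groups and each condition is 1 library.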
